A study of Schizosaccharomyces pombe with 130 samples.

Results

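Ago1 is the only Argonaute protein of the fission yeast Schizosaccharomyces pombe. The RNA of cells without it was compared with that of wild-type cells. The comparison covered features other than the named repeats that Ago1 is best known to silence. A total of 3 ago1Δ libraries of polyadenylated RNA (pA RNA) were set against 4 wild-type libraries (wt), out of 130 samples in the series. All 3 ago1Δ libraries came from 1 strain (638, mating type h+), in which kanMX6 replaces ago1. Wild-type replicates 1, 3 and 4 came from strain 63 (h+, untagged ago1). Wild-type replicate 2 came from strain 65, which is h90 and carries natMX6::3xFLAG-ago1. Every one of these strains, the controls included, carries a ura4+ reporter inserted in the outer repeat of centromere 1 (otr1R::ura4+) and the alleles ura4-DS/E, leu1-32 and ade6-M210. Cells grew in rich medium without a treatment or a time course. The features compared were 6942 of the 7021 in the files. The centromeric dg and dh repeats, tlh1, tlh2 and SPAC212.10, the mating-type features, ribosomal RNA, the central core regions and ago1 itself were left out. In bulk RNA of this kind, fewer cells expressing a gene and less RNA per cell cannot be told apart. Of the 6942 features, 6578 passed the filter on low counts (at least 10 counts in at least 2 of the 32 pA libraries), and the rest were not tested.

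Argonaute proteins hold small RNAs. In fission yeast, Ago1 sits with Chp1 and Tas3 in the RITS complex, which small RNAs bring to nascent transcripts of the pericentromeric repeats. There it helps to recruit Clr4, the methyltransferase that places methyl groups on lysine 9 of histone H3 (H3K9me2). The comparison asked what differed in the mutant among features other than those named for these repeats.

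The labels held at the deleted gene. ago1 had 9, 6 and 8 counts in the ago1Δ libraries and 1075, 4019, 1225 and 1104 in wild-type replicates 1 to 4, the highest being that of the tagged strain. The dg and dh copies, which are not among the features described, took 0.344% to 0.404% of all counts in ago1Δ and 0.00215% to 0.00455% in wild type. Depth ranged from 11432095 to 17771761 counts per library. The wild-type libraries did not form 1 group. On the first principal component of all 32 pA libraries, wild-type replicates 1 and 2 lay at -41.7 and -28.6, replicates 3 and 4 at -11.3 and 8.88, and the ago1Δ libraries between 21.2 and 33.7. Replicates 1 and 2 are of different strains, so the division does not follow the strain. The main counts were therefore also taken without replicates 1 and 2, an alternative chosen after seeing the data. Levels are given as counts per 1000000 counts (CPM) after TMM scaling. The ago1Δ libraries varied too. By Spearman correlation, ago1Δ replicate 1 was nearer to wild-type replicates 3 and 4 (0.973 and 0.978) than to ago1Δ replicate 3 (0.953). In ago1Δ replicate 3, deviations from the group mean correlated at 0.64 with those of wild-type replicate 2 and -0.63 with replicate 4. Those of ago1Δ replicate 1 correlated at -0.55 and 0.51. Differences between libraries thus ran across both genotypes, and their source was not tested.

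Of the 6578 features, 381 were higher and 211 lower in ago1Δ in edgeR's quasi-likelihood test (Benjamini-Hochberg adjusted p under 0.05). Over all 6600 features tested, 5.97% were called higher and 3.21% lower. The rises were larger than the falls. The median log2 fold change was 1.69 among the features called higher and -0.74 among those called lower. A change of at least 2-fold was seen in 312 of the 381 and in 44 of the 211. The 3 ago1Δ values lay above all 4 wild-type values for 349 of the 381, and below them for 172 of the 211. Across all features tested, 12.5% lay above and 7.79% below. With scaling on protein-coding genes alone, 436 were higher and 106 lower, so the share of rises among the calls went from 64.4% to 80.4%, and the median of all features moved from 0.00 to 0.10. DESeq2 called 537 higher and 555 lower, a share of rises of 49.2%.

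Without wild-type replicates 1 and 2, 177 features were called higher and 20 lower (2.85% and 0.318% of all features tested). All 381 rises and all 211 falls kept their direction, but most were lost as calls. Of the 381, 146 were still called, and of the 211, 5 were (SPAC22H10.08, adh4, alg1, gln1 and nus1). The median log2 fold change among the 211 went from -0.74 to -0.42. Replicate 1 had the highest wild-type level for 173 of the 211. Without replicates 3 and 4 instead, also chosen after seeing the data, 1280 were higher and 1111 lower (19.6% and 16.9% of all features tested), and 328 of the 381 rises and 202 of the 211 falls were still called.

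**Figure D1:**
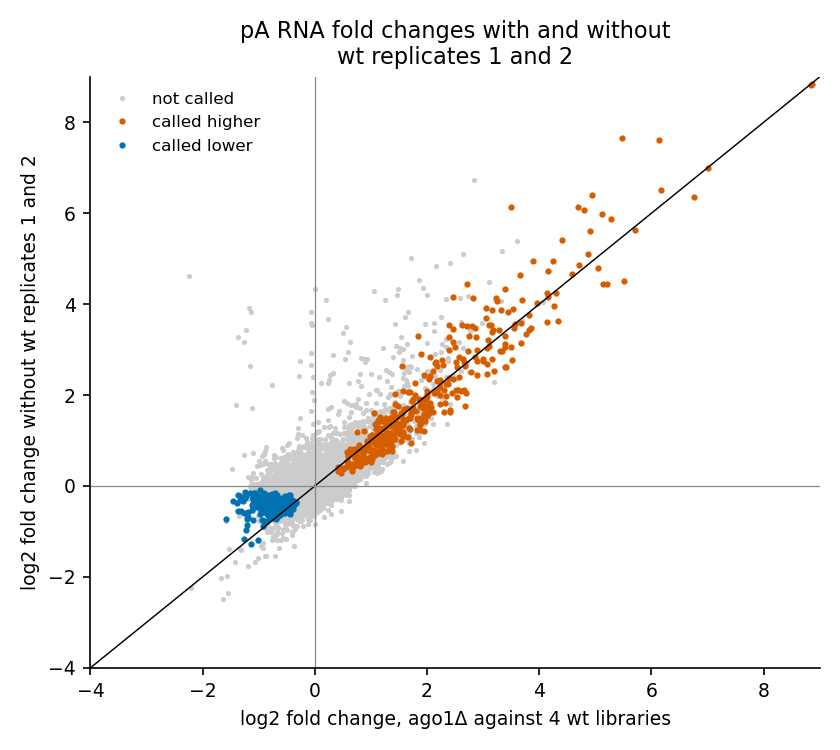
Each point is 1 feature, with its log2 fold change of ago1Δ against all 4 wild-type libraries on the x axis and that without wild-type replicates 1 and 2 on the y axis. The line marks equal values. The 381 features called higher (orange) lie near the line, whereas the 211 called lower (blue) lie above it, with a median of -0.42 in place of -0.74.

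The strongest rise of an abundant mRNA was that of hsp16, a small heat shock protein that binds unfolded proteins. It had 1572, 3029 and 4009 CPM in ago1Δ and 32.4, 70.8, 50.5 and 65.1 CPM in wild type. The groups lay far apart, and the log2 fold change was 5.71 ± 0.45 (SE, adjusted p = 5.5e-09). None of the 25 pA libraries of other mutants reached the ago1Δ values, the nearest being clr4Δ replicate 2 with 1167 CPM. The median of those 25 was 243 CPM, above every wild-type library, and their lowest value was 18.4 CPM. Other genes of the stress response moved as well. zym1, which encodes a metallothionein, had 161, 353 and 454 CPM in ago1Δ against 11.5 to 31.8 CPM in wild type (log2 fold change 3.86 ± 0.40, adjusted p = 5.1e-07). cta3, a P-type calcium ATPase, had 39.9, 103 and 217 CPM against 5.61 to 13.5 CPM (3.76 ± 0.50, adjusted p = 2.4e-05). In all 3 genes the groups did not overlap, and ago1Δ replicate 1 was the lowest and replicate 3 the highest of the mutant libraries.

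That order was common. Replicate 3 was the highest ago1Δ library for 249 of the 381 features called higher, and replicate 1 the lowest for 256. Of 19 heat shock genes, 4 (21.1%) were higher (hsp16, hsp9, ssa1 and hsp104) and none lower, against 5.97% and 3.21% of all features tested. The median log2 fold change was -0.05 over the list, against 0.00 over all features tested. The median was 0.70, with 5 higher and none lower, without wild-type replicates 1 and 2, and -0.56, with 3 higher and 5 lower, without replicates 3 and 4. hsp9 had 713, 1523 and 2662 CPM in ago1Δ and 168, 488, 202 and 80.4 CPM in wild type. ssa1, an Hsp70 chaperone, had 121, 218 and 867 CPM in ago1Δ and 55.8, 151, 17.5 and 19.2 CPM in wild type. hsp104, which pulls aggregates apart, had 132, 260 and 620 CPM against 98.7, 252, 53.8 and 54 CPM. For ssa1 and hsp104 the groups overlapped, because wild-type replicate 2 was higher than ago1Δ replicate 1. Summed over the 19 genes, the list took 1.20%, 1.70% and 2.71% of counts in ago1Δ and 1.52%, 2.33%, 1.02% and 0.901% in wild type, so the list as a whole overlapped too.

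Among 24 genes of the core stress response, 6 (25.0%) were higher (zym1, cta3, caf5, srx1, gpx1 and tms1) and none lower. Their list had a median log2 fold change of 0.49. Over all features tested, 5.97% were higher and 3.21% lower. caf5, a membrane transporter of the spermine family, had 71.9, 78 and 99 CPM in ago1Δ and 25.2 to 31.3 CPM in wild type (1.58 ± 0.21, adjusted p = 3.8e-05). srx1, the sulfiredoxin that repairs oxidised peroxiredoxin, had 22.3 to 24.4 CPM against 4.72 to 10.9 CPM. gpx1, glutathione peroxidase, had 361, 443 and 510 CPM against 133 to 292 CPM. tms1, a hexitol dehydrogenase, had 18.7 to 32.9 CPM against 13.1 to 17.8 CPM. Each of the 6 was separate between the groups, although without wild-type replicates 1 and 2 zym1, cta3 and caf5 passed the test and srx1, gpx1 and tms1 did not (ntp1, a trehalase, passed there).

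Levels of these genes also differed widely between wild-type libraries in another assay. In total RNA, without poly(A) selection, hsp16 had 3011 and 2217 CPM in ago1Δ, 6735 CPM in wild-type replicate 2 and 20.6 CPM in replicate 3. zym1 had 276 and 325 CPM in ago1Δ and 1912 and 7.66 CPM in wild type, and cta3 had 608 and 577 CPM against 270 and 2.55 CPM. Both wild-type libraries of that assay are of strain 65. The mutant levels thus lay between those of 2 libraries of the same wild-type strain for hsp16 and zym1. How much of the pA RNA difference goes with such differences between libraries was not tested.

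**Figure D2:**
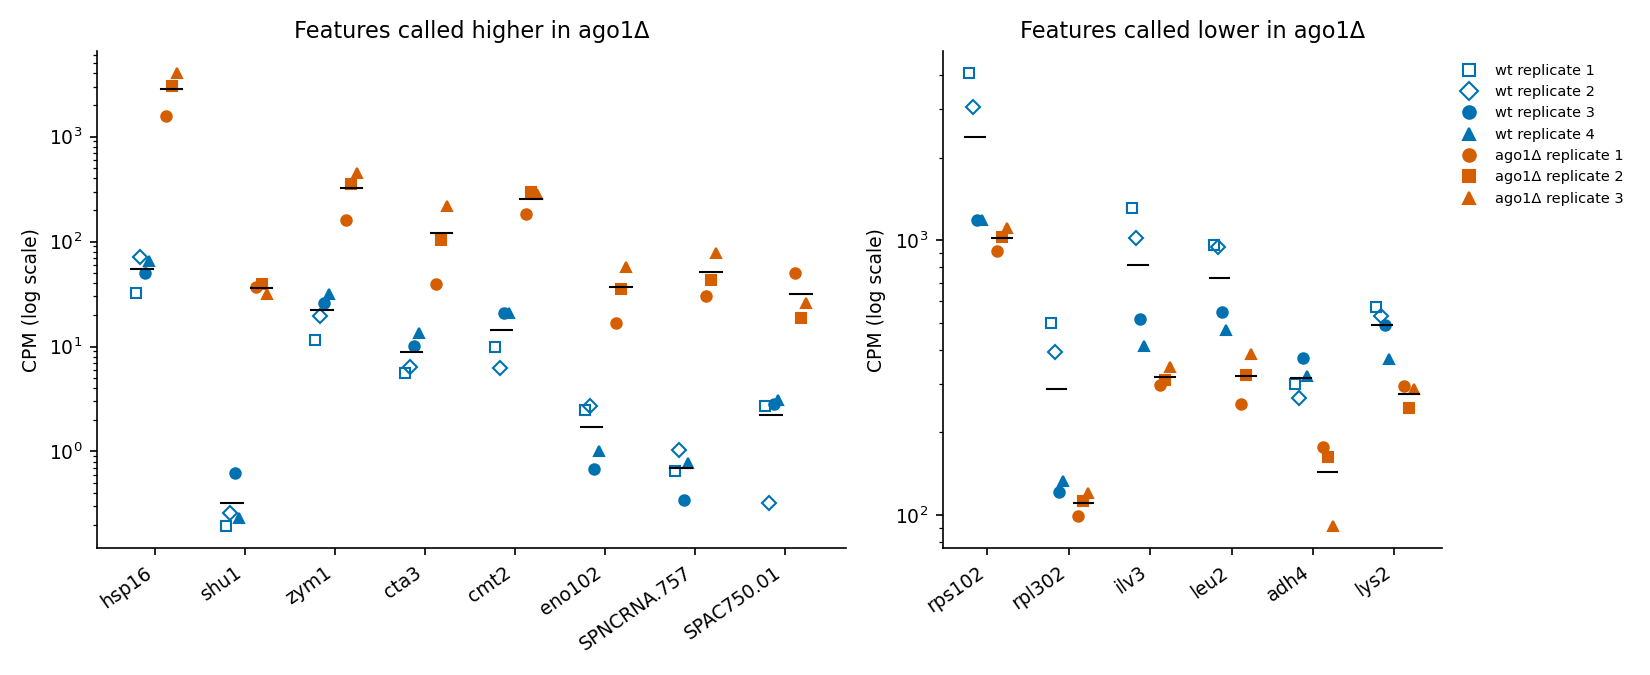
Levels in CPM (log axis) of 8 features called higher (left) and 6 called lower (right), with 1 symbol per library and a black line at the mean of each group. The groups are separate in all 14, but rps102 and rpl302 lie close to ago1Δ in wild-type replicates 3 and 4 and far above it in replicates 1 and 2.

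The largest log2 fold change among features of at least 2 CPM was that of shu1, a cell-surface protein that takes up heme when iron is short. It had 37.3, 39.6 and 31.4 CPM in ago1Δ and 0.196, 0.258, 0.619 and 0.232 CPM in wild type (6.75 ± 0.60, adjusted p = 5.2e-08). Of 12 iron-regulated genes, 4 (33.3%) were higher and none lower, with a median log2 fold change of 1.17. Over all features tested, 5.97% were higher and 3.21% lower. Beside shu1, the iron genes called higher were str3, a transporter, frp1, a ferric-chelate reductase, and php4, a repressor subunit made when iron is scarce. str3 had 141, 35.2 and 39.1 CPM against 3.85, 0.581, 18.7 and 2.09 CPM, and frp1 had 436, 205 and 155 CPM against 22.4, 25.2, 112 and 22.9 CPM. In both, ago1Δ replicate 1 was highest and wild-type replicate 3 was the highest control. php4 had 102 to 150 CPM against 46.8 to 79 CPM. Without wild-type replicates 1 and 2, shu1 alone of the 4 was still called, and fep1, the repressor of iron uptake, was called lower (-0.77, adjusted p = 0.026). Of the 25 pA libraries of other mutants, 5 reached the lowest ago1Δ value of shu1, led by both rrp6Δ libraries with 67.6 and 72.2 CPM.

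Genes of carbon use were among the rises and the falls. Of 14 genes of hexose transport and glucose repression, 3 (21.4%) were higher and none lower, against 5.97% and 3.21% of all features tested. fbp1, the gluconeogenic enzyme fructose-1,6-bisphosphatase, had 17.1, 28.2 and 38.4 CPM against 4.83 to 9.42 CPM (1.92 ± 0.29, adjusted p = 0.00015). inv1, invertase, had 30, 84.6 and 101 CPM against 11.9 to 20.6 CPM, and ght3, a transporter gene, had 5.34 to 11.6 CPM against 1.11 to 2.41 CPM. Of 16 glycolysis genes, 2 were higher (12.5%) and 2 lower (12.5%), with a median log2 fold change of -0.61. That median turned to 0.10 without wild-type replicates 1 and 2 and was -0.97 without replicates 3 and 4. The enolase gene eno102 rose from 0.687 to 2.71 CPM in wild type to 16.7, 35.7 and 57.4 CPM (4.40 ± 0.68, adjusted p = 0.0002), and gpd3, a glyceraldehyde-3-phosphate dehydrogenase, had 134, 404 and 602 CPM against 147, 59.1, 46.5 and 65.5 CPM. The hexokinase gene hxk2 had 304 to 442 CPM against 524 to 1332 CPM. The alcohol dehydrogenase gene adh4 had 177, 163 and 91.4 CPM against 300.1, 267, 373 and 321 CPM, and its fall was called with and without wild-type replicates 1 and 2 (-1.13 ± 0.27, adjusted p = 0.010, and -1.27, adjusted p = 0.026).

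The ends of chromosomes I and II held many rises. Of 141 features tested within 100 kb of these ends, placed by the ASM294v3 reference annotation, 37 were higher (26.2%) and none lower. Over all features tested, 5.97% were higher and 3.21% lower. The median log2 fold change of the 141 was 0.83. They include coding genes and non-coding RNAs, of which 3.54% and 13.5% were higher among all those compared. The part of feature class was not tested. By end, 13 of 45 were higher at the left end of I, 11 of 43 at its right end, 9 of 28 at the left end of II and 4 of 25 at its right end. Without wild-type replicates 1 and 2 the count was 22 higher and 1 lower. Summed over the features within 100 kb, the share of counts was 1.03%, 0.948% and 0.801% in ago1Δ and 0.595%, 0.553%, 0.815% and 1.04% in wild type, so the groups overlapped. H3K9me2 in the wild-type library was uneven among these ends. The features compared took 49933 and 23730 CPM of it at the left and right ends of I. At the left and right ends of II they took 258 and 1140 CPM. Further in, the ends hold genes that respond to nutrients.

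The rises near the ends were of different kinds. At the left end of II, 5 neighbouring coding genes were called higher in a row (eno102, SPBPB21E7.02c, SPBPB21E7.10, SPBPB21E7.11 and cmt2), with a median log2 fold change of 4.40. cmt2, a catechol O-methyltransferase, had 182, 294 and 286 CPM in ago1Δ and 9.85, 6.26, 20.8 and 21 CPM in wild type (4.14 ± 0.34, adjusted p = 9.8e-09). ago1Δ replicate 1 was the lowest mutant library in each of the 5, yet above every wild-type library. In total RNA cmt2 had 153 and 200 CPM in ago1Δ and 403 and 1.96 CPM in wild type. At the left end of I, ght3, shu1, str3 and hhy1 stood in a row. At its right end, SPAC869.09, pcm2 and mel1 did, mel1 (melibiase) with 4.17 to 10.4 CPM against 0.619 to 1.43 CPM. Closer to the telomeres, ago1Δ replicate 1 stood apart from the other mutant libraries. SPAC212.06c, which encodes a helicase-like protein, had 64.7, 5.3 and 11.2 CPM in ago1Δ against 2.02 to 5.42 CPM in wild type, and ftm4 had 21.7, 0.414 and 0.842 CPM against 0 to 0.541 CPM. The pseudogene SPBCPT2R1.07c had 2.8, 0 and 0.112 CPM against at most 0.0687 CPM, and SPAC212.05c had 10.4, 0.58 and 0.281 CPM against 0.0645 to 0.464 CPM. In each of these 4, replicate 2 or replicate 3 lay within the wild-type range and the other was above it by far less than replicate 1, on which the calls rest. Without it the log2 fold changes went from 2.85 to 1.14 (SPAC212.06c, adjusted p = 0.090), from 5.51 to 1.96 (ftm4, adjusted p = 0.13), from 5.22 to 1.47 (SPBCPT2R1.07c, adjusted p = 0.58) and from 4.34 to 1.21 (SPAC212.05c, adjusted p = 0.50). SPAC750.01, an aldo/keto reductase gene near the right end of I, was separate in every library, at 50.3, 18.8 and 26.1 CPM against 2.74, 0.323, 2.82 and 3.09 CPM (3.82 ± 0.47, adjusted p = 1.2e-05). The rise was not particular to ago1Δ, since the 25 pA libraries of other mutants had 11.7 to 107 CPM. Of those, 17 reached the lowest ago1Δ value. The 16 subtelomeric features that the study followed as heterochromatin gave 4 rises (25.0%) and no fall. Their summed level was 1183, 596 and 512 CPM in ago1Δ and 393, 440, 423 and 871 CPM in wild type, so wild-type replicate 4 was above ago1Δ replicates 2 and 3. Near-identical copies exist at these ends, and reads could be shared among them in the authors' counting.

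**Figure D3:**
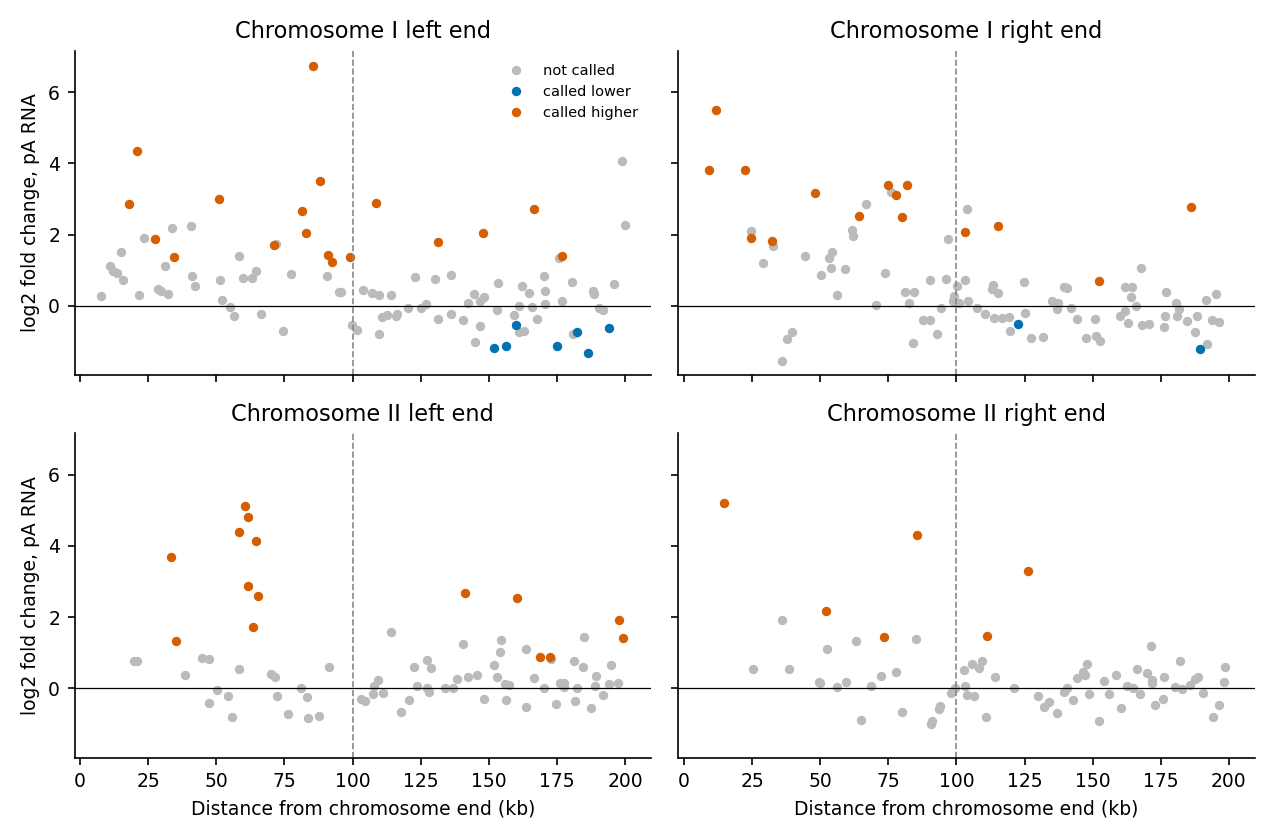
The log2 fold change in pA RNA of each tested feature is plotted against its distance from the chromosome end in kb, for the 4 ends of chromosomes I and II; the dashed line marks 100 kb. Features called higher (orange) number 13, 11, 9 and 4 within 100 kb, and none there was called lower.

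Some non-coding RNAs other than the named dg and dh features lie between the centromere-flanking genes. They were taken from the longest stretch without a protein-coding gene on each chromosome. These stretches run from per1 to emc5 on I, rpb1 to yox1 on II and meu27 to ppc1 on III in the reference. The named dg and dh features have no position in the reference annotation used, so their overlap with these RNAs was not examined. Reads with several locations were counted in heterochromatic regions, and reads of the repeats could fall on these RNAs. Of 32 such RNAs, 24 had too few counts to be tested, and 7 of the 8 tested were higher. Of these, 5 were called without wild-type replicates 1 and 2, SPNCRNA.1172 (adjusted p = 0.24) and SPNCRNA.364 (adjusted p = 0.077) being lost. SPNCRNA.231 had 87, 39 and 75 counts in ago1Δ and 0 in each wild-type library. SPNCRNA.234 had 71, 61 and 58 counts and SPNCRNA.232 had 19, 14 and 22 counts, again with 0 in each wild-type library. Against 3 counts per wild-type library (0.207 CPM), these levels were at least 21.1-fold, 20.8-fold and 5.85-fold higher, and such bounds cover counting error only. SPNCRNA.373 had 30, 20 and 35 counts against 1, 0, 0 and 0, and SPNCRNA.364 had 19, 6 and 12 counts against 0, 1, 0 and 0. SPNCRNA.359 and SPNCRNA.1172 were expressed in wild type as well, SPNCRNA.359 with 12.9, 10.8 and 17.2 CPM against 0.913 to 4.48 CPM (2.24 ± 0.43, adjusted p = 0.0017) and SPNCRNA.1172 with 7.56, 7.87 and 6.68 CPM against 0.326 to 2.94 CPM. Features that are silent in wild type could pass the filter only through mutant libraries, so the count of 7 in 8 holds for those tested. In the 50 kb on either side of these stretches, 11 of 181 features were higher (6.08%) and 9 lower (4.97%). Over all features tested, 5.97% were higher and 3.21% lower. The median log2 fold change in these 50 kb was -0.06.

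H3K9me2 ChIP libraries, 1 per strain and hence without a test, gave a second view of these places. The wild-type library was of the tagged strain, so it differed from the ago1Δ library in mating type and tag as well as in the deletion. The part of these strain differences in the changes of the mark was not tested. Density per kb was taken relative to the median coding gene of the same library, without input. The mark was read in 9159269 counts in wild type and 3343510 in ago1Δ. In wild type, 65 of the 6578 features tested (0.988%) had at least 5 times that median and at least 50 counts. They included 18 of the 381 features called higher (4.72%) and none of the 211 called lower. The median relative density over all features called higher was 0.926 in wild type. The change of the mark in ago1Δ depended on the scale. By relative density all 65 were lower in ago1Δ, and by counts per 1000000 of the whole library, in which the centromeric repeats count too, 20 of the 65 were. The 65 included mitochondrially encoded features, which fell in relative density too. Of these, cob1 went from 38.8 to 10.2 and cox3 from 15.4 to 3.79, while both rose in CPM. Without input, density there cannot be taken as the mark, so the fall of all 65 is not by itself a loss of it. The 7 centromeric non-coding RNAs called higher in pA RNA fell on both scales, whereas the flanking gene emc5 went from 6.45 to 0.988 in relative density and from 29.8 to 44.9 CPM. Among the 7, relative density went from 102 to 0.533 at SPNCRNA.231, from 24.3 to 0.185 at SPNCRNA.234 and from 406 to 2.98 at SPNCRNA.359, and the share of the library from 640 to 32.9 CPM, from 144 to 10.8 CPM and from 5201 to 375 CPM. Near the ends the scales did not give the same direction in every case. SPAC212.06c went from 997 to 138 in relative density and from 5113 to 6975 CPM in the share, ftm4 from 14.4 to 2.47 and from 121 to 204 CPM, and SPAC750.01 from 196 to 17.2 and from 1186 to 1026 CPM.

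Non-coding RNAs were a large class among the rises. Of 1433 tested, 194 were higher (13.5%) and 4 lower, with a median log2 fold change of 0.71, whereas 179 of 5053 coding genes were higher (3.54%) and 207 lower, with a median of -0.10. RNAs antisense to a gene gave 97 rises among 636, and other non-coding RNAs 97 among 797. Without wild-type replicates 1 and 2, 61 of the 1433 non-coding RNAs were higher and none lower, and 113 of the 5053 coding genes were higher and 20 lower. Coding genes then outnumbered non-coding RNAs among the rises, but a larger share of the non-coding RNAs was still called higher. SPNCRNA.757 had 30.6, 43.5 and 78.7 CPM in ago1Δ and 0.344 to 1.03 CPM in wild type (6.16 ± 0.78, adjusted p = 1.7e-05). Among RNAs antisense to housekeeping genes, aur1-antisense-1 had 15.4, 25.8 and 44.3 CPM against 0.344 to 1.35 CPM, cph1-antisense-1 had 52.2, 74.5 and 83.3 CPM against 1.96 to 5.64 CPM, and rif1-antisense-1 had 27.6, 49 and 60.3 CPM against 0.782 to 2.77 CPM. tra1-antisense-1, SPNCRNA.750, SPNCRNA.1219, SPNCRNA.540 and SPAC637.04-antisense-1 were among the 15 largest rises too, each between 2.74 and 27.1 CPM in ago1Δ and at most 1.35 CPM in wild type. The coding genes SPAC9G1.14, SPAC4F10.17 and fub2, a relative of a proteasome regulator, completed those 15, with at least 10.4 CPM in each ago1Δ library and at most 2.16 CPM in wild type. The sense partners of the rising antisense RNAs mostly gave no call. Of 94 pairs tested, 3 sense genes were higher and 1 was lower, with a median log2 fold change of -0.07, against -0.09 in the 522 other pairs. The reads were counted by strand.

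As a share of all counts, non-coding RNAs took 3.16%, 3.25% and 3.09% in ago1Δ and 1.67%, 2.16%, 2.18% and 2.69% in wild type. Small nucleolar RNAs, most of which lack a poly(A) tail, moved with them. They took 0.0371%, 0.0409% and 0.0445% in ago1Δ and 0.0108%, 0.00987%, 0.0175% and 0.0316% in wild type. Of 46 snoRNAs tested, 3 were higher (snR30, snoU14 and snR93) and none lower. That is 6.52%, near the 5.97% called higher over all features tested. Without wild-type replicates 1 and 2 none of the 3 was called (adjusted p = 0.17, 0.27 and 0.34). snR30, needed for ribosomal RNA processing, had 73.9, 103 and 140 CPM against 20.3 to 52.4 CPM. Wild-type replicate 4 was nearest to the mutant for both classes. The part of library preparation in these shares was not tested.

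**Figure D4:**
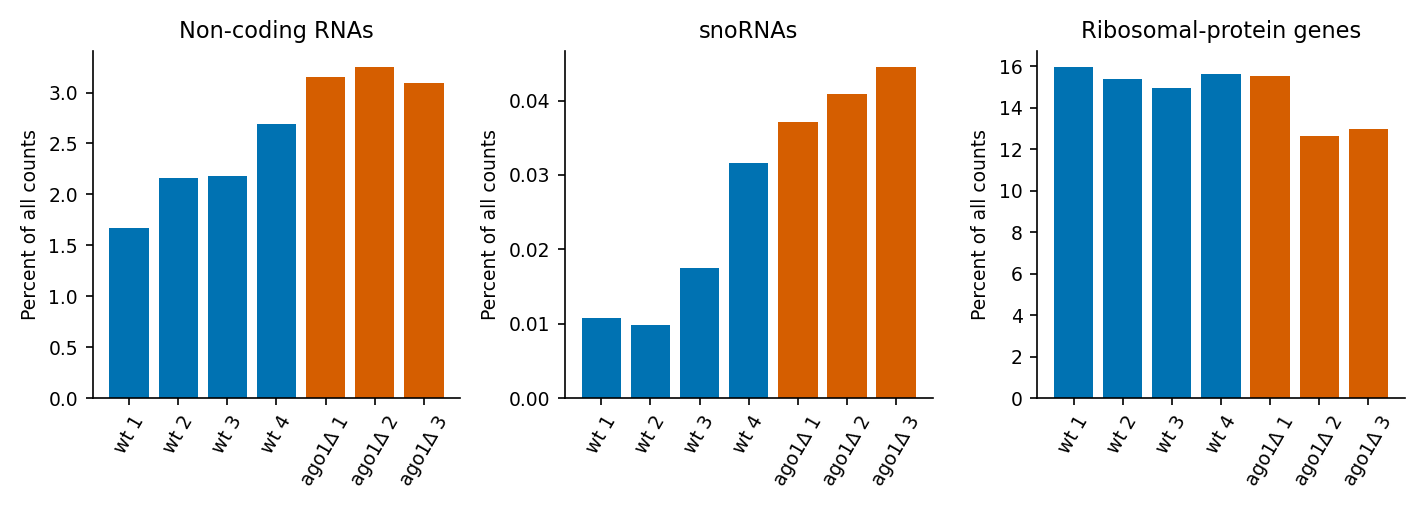
Bars give the percent of all counts in each of the 7 libraries taken by non-coding RNAs, snoRNAs and the 141 ribosomal-protein genes, with wild type in blue and ago1Δ in orange. Non-coding RNAs and snoRNAs are higher in every ago1Δ library than in any wild-type library, and ribosomal-protein genes overlap, with 15.5% in ago1Δ replicate 1 and 14.9% in wild-type replicate 3.

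Genes of the sexual cycle gave more rises than falls. Of 146 genes whose names mark meiosis or sporulation, 16 were higher and 1 lower, with a median log2 fold change of 0.24 (6 higher and none lower without wild-type replicates 1 and 2). Of 18 meiotic genes whose mRNAs carry signals for removal in dividing cells, meu13 and mek1 were higher (11.1%). meu13, which acts in the pairing of meiotic chromosomes, had 5.86, 9.03 and 15 CPM against 1.72 to 2.58 CPM (2.17 ± 0.43, adjusted p = 0.0025), and mek1, a meiotic kinase, had 3.89 to 7.8 CPM against 1.23 to 2.71 CPM. The summed level of the 18 overlapped, at 309, 403 and 662 CPM in ago1Δ and 579, 755, 349 and 302 CPM in wild type. The wtf family includes selfish elements that kill spores lacking them. Of 24 wtf genes, 4 (16.7%) were higher (wtf20, wtf21, wtf22 and wtf23) and none lower, with a median of 0.65 over the list. Values of the 4 in ago1Δ lay between 3.13 and 24.2 CPM. When wild-type replicates 1 and 2 were left out, wtf22 alone was called, and the others had adjusted p = 0.22, 0.26 and 0.30. Of 12 nitrogen-response genes, the ammonium transporter gene amt3 was higher (8.33%, against 5.97% of all features tested). None was lower, while the median of the list was -0.40. The median was -0.68 without wild-type replicates 1 and 2, with amt3 higher and put4 and per1 lower. Of 7 genes of copper and zinc, zym1 alone was called.

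Among the falls, 25 were of ribosomal-protein genes and 14 of genes for amino acid synthesis, and their size depended on the wild-type libraries. Of 141 ribosomal-protein genes, 25 (17.7%) were lower and none higher, against 3.21% and 5.97% of all features tested. Their median log2 fold change was -0.68. Without wild-type replicates 1 and 2, none was called and the median was -0.22. rps102 had 916, 1029 and 1106 CPM in ago1Δ and 4055, 3071, 1187 and 1183 CPM in wild-type replicates 1 to 4. In the 25 pA libraries of other mutants it had 710 to 2648 CPM, with a median of 1211 CPM. Wild-type replicates 1 and 2 thus lay above all of those, and 22 of the 25 reached the lowest ago1Δ value. rpl302 had 99.4, 113 and 120 CPM against 502, 393, 122 and 134 CPM (-1.37 ± 0.42, adjusted p = 0.043). rpp203, rps601, rpl44, rps2601 and rpl1902, which were also among the 15 largest falls, were likewise highest in wild-type replicates 1 and 2. Their log2 fold changes were -1.46 to -1.20 over all libraries and -0.72 to -0.23 without replicates 1 and 2. rps2601 kept the widest distance among these, with 234 to 281 CPM in ago1Δ against 414 and 427 CPM in replicates 3 and 4.

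Of 35 genes of amino acid synthesis, 14 (40.0%) were lower and none higher, with a median of -0.62 (-0.26 and no call without replicates 1 and 2). They serve the arginine (arg3, arg4, arg11, arg12), lysine (lys1, lys2, lys3, lys9), leucine, isoleucine and valine (leu2, ilv1, ilv3), histidine (his1, his2) and tryptophan (trp2) pathways. leu2, the isopropylmalate isomerase gene, had 253, 323 and 385 CPM in ago1Δ and 960, 946, 551 and 471 CPM in wild type (-1.19 ± 0.24, adjusted p = 0.0029). The 25 pA libraries of other mutants had 231 to 891 CPM of leu2, with a median of 513 CPM. ilv3 had 297, 310 and 345 CPM against 1314, 1017, 519 and 412 CPM (-1.36 ± 0.32, adjusted p = 0.010). lys2 had 245 to 296 CPM against 371 to 572 CPM (-0.83 ± 0.17, adjusted p = 0.0039). In these 3, every ago1Δ value lay below every wild-type value. For arg4, arg11 and arg12 the groups overlapped at wild-type replicate 4. Other large falls were those of srm1 (spermidine synthase), SPAP8A3.07c (an enzyme of aromatic amino acid synthesis), SPAC8E11.10, uep1, SPAC3G6.05 and SPAC5H10.03, with log2 fold changes of -1.39 to -1.20, and of the non-coding SPNCRNA.142, with -1.26. Among 7 subunits of the Ccr4-Not complex, which shortens poly(A) tails, not3 was lower, with 108, 122 and 130 CPM against 398, 259, 165 and 148 CPM (-1.02 ± 0.28, adjusted p = 0.029; without replicates 1 and 2 -0.39, adjusted p = 0.48).

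Other genes of the silencing machinery did not pass the test in ago1Δ. None of 12 RNAi genes and none of 14 genes of H3K9 methylation and its readers was called, with medians of 0.01 and -0.14. Their log2 fold changes ran from -0.31 (arb2) to 0.43 (stc1) and from -0.43 (clr2) to 0.31 (chp2). dcr1, the Dicer gene, had 102, 121 and 125 CPM in ago1Δ and 106 to 115 CPM in wild type, and swi6, the HP1 gene, had 210, 192 and 152 CPM against 217 to 269 CPM. Of the 8 features nearest ago1, 7 were tested and none was called, the coding ones being mrps8 (0.25), mmi1 (-0.25), SPCC736.13 (0.24) and dis1 (-0.34). P-cell genes (map2, map3, map4) and the M-cell genes mfm1, mfm2, mfm3, mam1, mam2, mam3 and sxa2 gave no call. Their median log2 fold changes were -0.02 and 0.82. The M-cell median was 0.43 without wild-type replicates 1 and 2 and 0.71 without replicates 3 and 4. Summed M-cell levels overlapped, at 113, 132 and 131 CPM in ago1Δ and 143, 173, 116 and 104 CPM in wild type. The M-factor gene mfm2 was at 23.8, 20.4 and 6.18 CPM in ago1Δ and 3, 17.4, 7.84 and 9.59 CPM in wild type. Of the marker genes, ura4 had 590, 472 and 411 CPM in ago1Δ and 231, 194, 382 and 460 CPM in wild type (0.63 ± 0.24, adjusted p = 0.099). Its H3K9me2 went from 254 to 1.57 in relative density and from 1667 to 101 CPM, with the tagged strain as wild type. The ago1Δ values were above wild-type replicates 1, 2 and 3, and replicate 4 lay within their range. leu1 (-0.67, adjusted p = 0.14) and ade6 (-0.55, adjusted p = 0.19) did not pass either. No call was made among 26 genes of RNA decay, 15 of sexual differentiation, 9 of pyrimidine metabolism, 6 of phosphate uptake, 11 histone genes, 14 targets of the MBF factor, 15 flocculin genes, 27 genes of the centromere and the spindle checkpoint, 8 telomere genes, 4 tubulin genes, 38 mitochondrial ribosomal-protein genes, 10 mitochondrially encoded features, 6 snRNAs, 2 tRNAs and 4 Tf2 features. By chromosome, 133 of 2303 coding genes were lower on I (5.78%), 51 of 1833 on II (2.78%) and 23 of 911 on III (2.52%), and median log2 fold changes were -0.13, -0.08 and -0.07.

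Nascent RNA, taken as the RNA bound to elongating polymerase (Pol II RIP), was compared in 2 ago1Δ and 2 wild-type libraries of strains 638 and 63. Of 6483 of the features tested there, 14 were higher and none lower at adjusted p under 0.05 (0.352% and 0.0153% over all features tested, and 8.21% at unadjusted p under 0.05). DESeq2 called 36 higher and 6 lower. Of the 14, 4 were also called in pA RNA, namely hsp16, SPAC212.06c, ftm4 and SPBCPT2R1.07c. hsp16 had 170 and 187 CPM of nascent RNA in ago1Δ and 3.7 and 11.5 CPM in wild type (4.87 ± 0.57, adjusted p = 5.8e-06). SPAC212.06c had 150 and 143 CPM against 7.74 and 5.73 CPM (4.36 ± 0.66, adjusted p = 0.00033), with both mutant libraries alike. ftm4 had 11.3 and 7.77 CPM against 0 and 0 CPM. The 2 nascent RNA libraries of ago1Δ thus did not show the distance that pA replicate 1 had from replicates 2 and 3 at these genes.

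The other 10 were called in nascent RNA only at the thresholds used, and the difference between the assays was not tested. hem13, coproporphyrinogen III oxidase of heme synthesis, had 1692 CPM in both ago1Δ libraries and 208 and 179 CPM in wild type (3.12 ± 0.70, adjusted p = 0.041), while its pA log2 fold change was -1.52 (adjusted p = 0.059). sre1, a transcription factor that responds to sterols and oxygen, had 1253 and 1318 CPM against 249 and 248 CPM (2.37 ± 0.50, adjusted p = 0.024), with -0.37 in pA RNA. scs7, mmd1, rcf2, are1, osm1, SPAC212.09c, SPCC4F11.05 and SPBC106.12c-antisense-1 rose by 1.40 to 2.94 in nascent RNA and had pA values of -0.84 to 1.04.

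**Figure D5:**
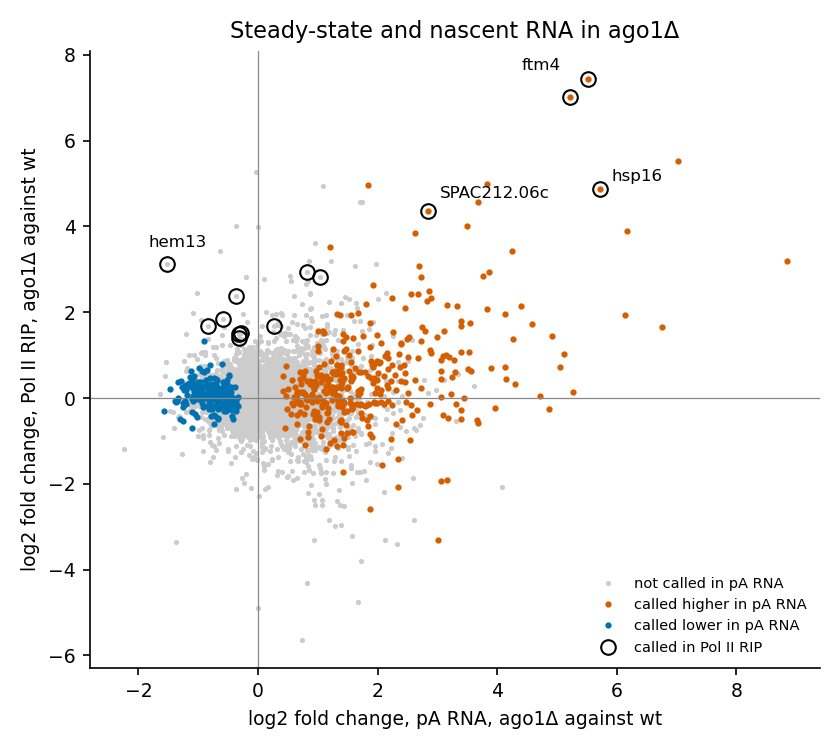
Each point is a feature tested in both assays, with the log2 fold change of ago1Δ against wild type in pA RNA on the x axis and in Pol II RIP on the y axis. The black rings mark the 14 features called in Pol II RIP, of which 4 lie among the pA rises (orange) and none among the pA falls (blue).

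Most pA changes had no call in the other assays. Of the 381 rises, 360 were tested in Pol II RIP, where 66.4% were above 0 (48.9% of all features) with a median log2 fold change of 0.31. Of the 211 falls, 40.8% were below 0 in Pol II RIP (51.1% of all features), with a median of 0.04. In total RNA the falls were lower in 87.2% (49.6% of all features), with a median of -0.61, and 59.5% of 338 rises were above 0, with a median of 0.29. shu1 was not tested in total RNA, and its Pol II RIP level was 0 and 3.45 CPM in ago1Δ and 0.673 and 0 CPM in wild type, at the floor of those libraries. Over all features, total RNA gave no call with edgeR in 2 against 2 libraries (0.0% in both directions, 1.36% at unadjusted p under 0.05; DESeq2 called 1). Pol II ChIP, in 2 ago1Δ libraries against 1 wild-type library each of strains 63 and 65, gave none with edgeR either. There 6.93% of all features were at unadjusted p under 0.05, and DESeq2 called 7. In that assay hsp16 had a log2 fold change of 1.66 ± 0.65 (adjusted p = 0.68).

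The mutant without the methyltransferase Clr4, clr4Δ (2 pA libraries of strain 80, h+, with kanMX6 in place of clr4 and the same other alleles), was compared with it directly, without the shared control. None of the 6578 features was called in either direction with edgeR (0.0% higher and 0.0152% lower over all features tested, and 5.08% of all features at unadjusted p under 0.05), and DESeq2 called 14 higher and 4 lower in ago1Δ. hsp16 had 624 and 1167 CPM in clr4Δ, and the difference of ago1Δ from it was 1.68 ± 0.49 (adjusted p = 0.50). cmt2 had 58.9 and 73.1 CPM in clr4Δ (1.94 ± 0.40, adjusted p = 0.15), shu1 had 2.3 and 7.88 CPM (2.75 ± 0.64, adjusted p = 0.22) and caf5 had 26.1 and 44.5 CPM (1.22 ± 0.27, adjusted p = 0.22). SPAC212.06c went the other way, with 87.9 and 105 CPM in clr4Δ and a difference of -1.83 ± 0.62 (adjusted p = 0.66), and ftm4 had 48.2 and 40.9 CPM (-2.54 ± 0.93, adjusted p = 0.70). These differences exceeded their standard errors by more than 2 times but did not pass the adjustment, so the test leaves differences of this size between the 2 mutants undecided.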

How the data were processed

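The authors aligned reads to the PomBase genome with STAR 2.7.3a, removed ribosomal RNA reads and counted the rest per feature with an extension of HTSeq, by strand for RNA. Reads with several locations were kept only in heterochromatic regions. The deposited counts are raw, 1 file per sample, with empty cells read as 0. Tests used edgeR 4.0.16 under R 4.3.3 (quasi-likelihood, TMM, all genotypes of an assay in 1 fit, at least 10 counts in at least 2 libraries), two-sided, adjusted over all features tested. DESeq2 1.42.0 was an alternative. The study's replicate rule for Pol II ChIP removed 0 libraries. The deposited transcript length in bases was used for H3K9me2 density. Named were the 15 largest rises and falls among called features of at least 2 CPM with separate groups, called list members, the 4 features on each side of ago1, ura4, leu1, ade6 and the RNAi, H3K9 and mating-type lists. Genes called in Pol II RIP, the genes kept without wild-type replicates 1 and 2, ntp1, fep1, put4, per1, emc5, and the centromeric and end-of-chromosome features were named after their values were seen. Members and lists were chosen with earlier results of these data known. 6852 features matched the ASM294v3 annotation; 4 list names did not match. The study calls its replicates biological, but the labels do not say whether they are separate cultures. P-values and standard errors thus measure the spread between libraries within a genotype, pooled over all genotypes of an assay. Code was tested on simulated data.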

Additional observations from a re-analysis of the deposited data

Results flagged for a closer look

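In 9 of 150 named features 1 of the 4 wild-type libraries stood apart from the others, by a gap divided by the range above Dixon's limit for 4 samples; chance gives about 1 in 20. frp1 was highest in replicate 3 (112 CPM, next 25.2 CPM, ratio 0.969), and so were shu1 (0.619 and 0.258 CPM, 0.852) and SPBCPT2R1.07c (0.0687 and 0 CPM, 1.0). Replicate 2 was highest for SPNCRNA.750 (1.23 and 0.344 CPM, 0.887) and SPNCRNA.364 (0.0645 and 0 CPM, 1.0), and lowest for SPAC750.01 (0.323 and 2.74 CPM, 0.872). Replicate 1 was lowest for gpx1 (133 and 265 CPM, 0.83) and highest for SPNCRNA.373 (0.0652 and 0 CPM, 1.0), and replicate 4 was highest for SPNCRNA.602 (1.93 and 1.04 CPM, 0.864). For SPBCPT2R1.07c, SPNCRNA.364 and SPNCRNA.373 the gap is that of a single count.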

How the results depend on the processing

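For pA RNA against wild type, main counts were 381 higher and 211 lower. Fitting the 7 libraries alone gave 155 and 0, without wt replicates 1 and 2 gave 177 and 20, and without wt replicates 3 and 4 gave 1280 and 1111. Lower calls numbered 106 with coding normalization, 555 with DESeq2 and 44 at 2-fold or more. With 1 library left out, higher calls ranged from 158 (without ago1Δ replicate 3) to 703 (without wt replicate 4) and lower calls from 25 (without wt replicate 1) to 684 (without wt replicate 4). The replicate block gave 490 and 340; replicate numbers did not pair libraries, since same-numbered deviations correlated at -0.32, -0.24 and -0.50. Against clr4Δ, the counts of 0 became 14 and 4 with DESeq2 and ranged from 0 to 10 in both directions with 1 library left out. In Pol II RIP, 14 higher became 36 with DESeq2 and 28 with the block, and 3 to 5 with 1 library left out; 0 lower became 6, 2 and 0 to 2. In total RNA DESeq2 gave 1 higher. In Pol II ChIP DESeq2 gave 7 higher, and leaving out 1 library gave 0 to 22 higher and 0 to 1 lower. Without wt replicates 1 and 2, leu1 became 0.18 and ade6 0.021, from -0.67 and -0.55. Of 147 called features named by the rule, 38 of 91 rises and 0 of 56 falls kept their call under every alternative. The cause of these changes was not tested.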
